A study of Mus musculus with 4 samples.

Results

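The 10 genes described here code for annexins (Anxa1, Anxa2, Anxa4, Anxa5, Anxa6 and Anxa7) and for small S100 proteins (S100a4, S100a6, S100a10 and S100a11). They were chosen by gene name, and all 10 were found among the 55573 genes of the deposited table. Signal was measured in primary mouse myoblasts on day 2 of proliferation in culture with FGF. The sources differ on the assay. The sample titles call it Polysome-Seq, which would be RNA bound by several ribosomes, whereas the extraction text describes ribosome profiling, that is the short stretches of mRNA that a ribosome shields from RNase I. The time in cycloheximide, which holds ribosomes in place, also differs between the sample labels and the design text. The values are read here as ribosome-protected signal, after the extraction text, and the table itself does not settle which assay it holds. There were 2 wild-type (WT) libraries and 2 libraries labelled as an eIF5A knockout (KO). eIF5A, the one protein known to contain the spermidine-derived residue hypusine, helps ribosomes along difficult stretches of mRNA, and the study asked which mRNAs depend on it for translation. In the study's methods, the knockout mice carried a floxed eIF5A gene and Pax7-CreERT2, a Cre recombinase that tamoxifen activates in satellite cells only. The cells came from hind-limb muscle of tamoxifen-induced animals aged 3 weeks and their littermates. The control genotype is given once as Pax7-CreERT2 without the floxed gene and once as the floxed gene without Cre. Other cell types that grow out of digested muscle would keep eIF5A under this driver. How many animals went into each library is not given in the sources used here, so the p-values measure only the spread between these libraries.

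Annexins are cytosolic proteins that bind negatively charged membrane lipids when calcium rises. S100 proteins are small calcium sensors with a pair of EF-hand loops, and several of them bind annexins. When the plasma membrane tears and calcium flows in, annexins gather at the wound together with S100 partners, the ferlins dysferlin and myoferlin and other proteins, and help to reseal it. Muscle fibres tear often during contraction, and muscle that lacks dysferlin repairs its membrane poorly. S100a10 forms a stable complex with annexin A2, and S100a11 binds annexins A1 and A2. S100a4 and S100a6 are also abundant in fibroblasts and other cells of connective tissue.

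The sequences were looked at first, because ribosomes need eIF5A most at runs of proline codons. The coding sequence used was the longest one of each gene in GENCODE M21 (build GRCm38), without the stop codon. None of the 10 genes had 3 or more proline codons in a row, and 25.8% of 9840 tested protein-coding genes did. A run of 2 was the longest in Anxa2, Anxa6 and Anxa7, and the other 7 had only single proline codons. Of the 9840 genes, 72.5% had a run of 2 or more. Neither share is matched for length. The median coding sequence of the 9840 genes was 1377 bases, and all of the 10 but Anxa6 and Anxa7 were shorter. Anxa7, whose protein starts with a long tail rich in proline and glycine, had 47 proline codons among 485, or 9.69%. The share in the other 9 genes lay between 0.940% (Anxa4) and 3.96% (S100a4). The stretches that hold the first run of 2 in these 3 genes are printed with the codons on either side, 5′ to 3′, and capitals mark the proline codons.
Anxa2, codons 14 to 27: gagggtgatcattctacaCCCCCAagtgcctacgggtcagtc
Anxa6, codons 429 to 442: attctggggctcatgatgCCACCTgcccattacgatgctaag
Anxa7, codons 1 to 14: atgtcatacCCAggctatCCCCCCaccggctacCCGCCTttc

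The S100 messages are short. S100a6 has 89 codons, S100a10 97, S100a11 98 and S100a4 101, against 319 to 673 codons for the annexins. In S100a10 and S100a11 the second codon is the proline codon nearest the start. The start of each S100 coding sequence is shown with the 6 bases before it, and capitals mark the start codon.
S100a4: gttaccATGgcaagacccttggaggaggcc
S100a6: tcagtcATGgcatgccctctggatcaggcc
S100a10: ttcaaaATGccatcccaaatggagcacgcc
S100a11: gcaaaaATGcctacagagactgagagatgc

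All 4 S100 genes lie on the plus strand of chromosome 3, in the cluster that holds most of this family. S100a4 (ENSMUSG00000001020) spans 90603771 to 90606045 and S100a6 (ENSMUSG00000001025) spans 90612882 to 90624181. Farther along are S100a11 (ENSMUSG00000027907; 93520488 to 93526287) and S100a10 (ENSMUSG00000041959; 93555080 to 93564643). Each has 3 exons in the transcript used, 2 of them coding. The annexins are spread over the genome. Anxa5 (ENSMUSG00000027712) is on chromosome 3 at 36448923 to 36475894, Anxa2 (ENSMUSG00000032231) on chromosome 9 at 69453620 to 69491795, and Anxa1 (ENSMUSG00000024659) on chromosome 19 at 20373428 to 20390944. Anxa6 (ENSMUSG00000018340) is on chromosome 11 at 54979108 to 55033445, Anxa7 (ENSMUSG00000021814) on chromosome 14 at 20455260 to 20480133, and Anxa4 (ENSMUSG00000029994) on chromosome 6 at 86736840 to 86793584. The annexin transcripts used have 12 to 26 exons.

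For 2 of the S100 genes the sequence limits what a fragment can be assigned to. Of the 28-base windows in the S100a4 coding sequence, 94.2% also occur in Gm42674, an annotated gene that overlaps S100a4 on the same strand. Gm42674 shares 302 bases with the exons of S100a4, 287 of them coding, and is listed with 0 reads in all 4 libraries. In S100a11, 89.1% of the windows also occur in transcripts of 8 other annotated genes, S100a11-ps among them, which together are listed with 0 reads. How reads that fit more than 1 gene were counted is not given in the sources used here, so the levels of S100a4 and S100a11 are uncertain. The same share was 3.41% in S100a10 and 0 in S100a6 and the 6 annexins.

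The deposited RPKM values (a gene's reads divided by its length and by a library size that the authors chose) gave back between 642429 and 704006 whole reads a library, of which 269143 and 217651 fell on protein-coding genes in WT libraries 1 and 2, and 460099 and 385091 in KO libraries 1 and 2. The totals of recovered reads were thus close, but the protein-coding reads were not, nor were the library sizes behind the RPKM values, which were 602863 and 471136 in WT and 906990 and 807705 in KO. Eif5a itself was not lower under the KO label, with 34.9 and 65.2 RPKM in WT and 60.3 and 59.4 RPKM in KO. Its log2 fold change was 0.32 ± 0.48 (SE, limma adjusted p 0.839). A value per gene does not show whether these reads came from the floxed exons, so the group is called by its label. Myoblast markers were present. Their 10 genes summed to 350.4 RPKM in WT library 1, 214.2 RPKM in WT library 2, and 121.0 and 136.3 RPKM in KO libraries 1 and 2. Myod1, which sets the myogenic fate, had 139.9 and 117.5 RPKM in WT and 48.6 and 79.8 RPKM in KO. WT library 1 stood apart, with 91.0 RPKM of Myog (an early gene of muscle differentiation) against 4.26, 0.74 and 1.66 RPKM in WT library 2 and KO libraries 1 and 2, a gene singled out after its values were seen.

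S100a6, a calcium sensor found in dividing cells, gave the strongest signal of the 10 genes. WT libraries 1 and 2 had 104.4 and 888.1 RPKM (86 and 572 reads), and KO libraries 1 and 2 had 906.6 and 1061 RPKM (1124 and 1171 reads). WT thus averaged 496.2 ± 554.2 RPKM (SD, n = 2), and the KO average was 983.6 ± 108.9 RPKM (SD, n = 2). WT library 1 was the low one, and WT library 2 reached nearly the level of KO library 1. Among 9877 tested protein-coding genes S100a6 held rank 105 in WT library 1 but rank 6 in the other WT library, and ranks 5 and 4 in the KO libraries. It alone took 0.0320% of the protein-coding reads in WT library 1 and 0.263%, 0.244% and 0.304% in WT library 2 and KO libraries 1 and 2. KO relative to WT, on the log2(RPKM + 1) scale, the log2 fold change was 1.68 ± 1.05 (SE, limma adjusted p 0.697). Without WT library 1 this value fell to 0.14, and without WT library 2 it reached 3.22.

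S100a10, the partner of annexin A2, had 21.9 and 71.8 RPKM in WT (16 and 41 reads) and 91.9 and 100.1 RPKM in KO (101 and 98 reads). Both KO libraries lay above both WT libraries, and their mean was 4.38 times WT library 1 and 1.34 times WT library 2. The log2 fold change was 1.25 ± 0.64 (SE, limma adjusted p 0.680), and 0.41 without WT library 1. S100a11 had 35.7 and 174.5 RPKM in WT against 135.9 and 145.4 RPKM in KO. Here the groups overlapped, WT library 2 being the highest of all. Its log2 fold change of 0.82 ± 0.79 (SE, limma adjusted p 0.737) turned to -0.31 without WT library 1. S100a11 had 11, 42, 63 and 60 reads in the same order.

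S100a4, a marker often used for fibroblasts, had 9 reads in all. It was listed at 0 in WT library 1, where the 3 reads that a count of 0 allows would amount to 8.52 RPKM. The other values were 14.5 RPKM in WT library 2 and 1.89 and 8.48 RPKM in KO libraries 1 and 2 (4, 1 and 4 reads). The order of the groups could not be told at this depth. The KO mean was 0.713 times the WT mean on the RPKM scale, while the log2 fold change was 0.41 ± 1.31 (SE, limma adjusted p 0.932).

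**Figure D1:**
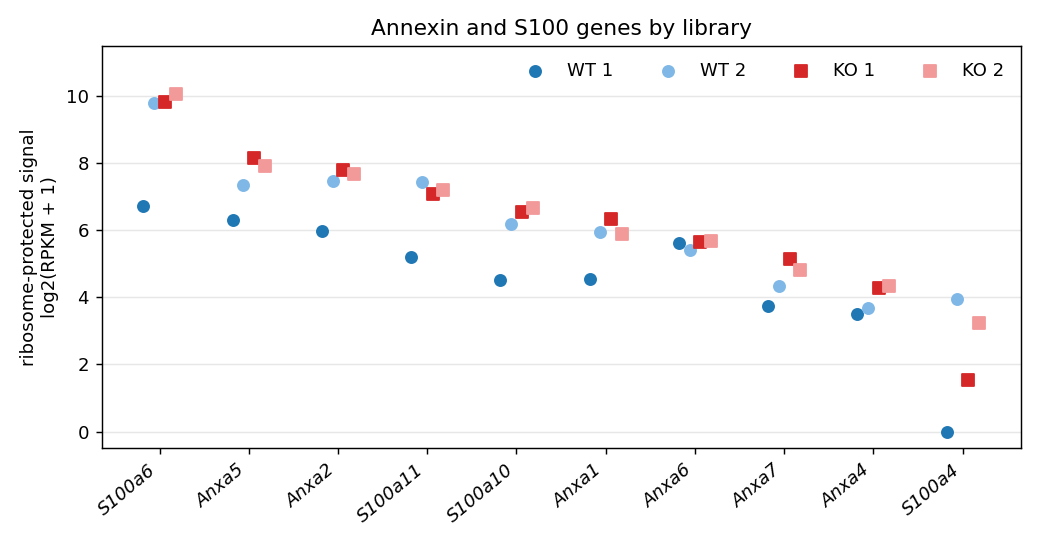
Signal of the 10 genes in each library as log2(RPKM + 1), with genes ordered by mean RPKM; circles are WT and squares are KO libraries. WT library 1 is the lowest of the 4 points for 9 genes, Anxa6 being the exception, and S100a4 is at 0 there.

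Among the annexins, Anxa5 and Anxa2 were the most strongly read. Anxa5, whose protein forms lattices on exposed phosphatidylserine and is used to stain dying cells, had 78.4 and 161.3 RPKM in WT (84 and 135 reads) and 284.8 and 239.7 RPKM in KO (459 and 344 reads). WT averaged 119.8 ± 58.6 RPKM (SD, n = 2) and KO 262.2 ± 31.9 RPKM (SD, n = 2), without overlap. The log2 fold change was 1.21 ± 0.56 (SE, limma adjusted p 0.676). It stayed at 0.69 without WT library 1, so that the direction did not rest on that library.

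Anxa2, which links membranes to actin, had 61.8 and 175.8 RPKM in WT (139 and 309 reads) against 221.9 and 204.4 RPKM in KO (751 and 616 reads). The groups did not overlap, and the step from WT library 1 to WT library 2 was 2.84-fold. The log2 fold change of 1.02 ± 0.63 (SE, limma adjusted p 0.697) was 0.28 without WT library 1. Anxa1, known as a mediator that ends inflammation, had 22.2 and 60.5 RPKM in WT and 79.9 and 58.3 RPKM in KO (39, 83, 211 and 137 reads). For Anxa1 the groups overlapped, since KO library 2 was below WT library 2. Its log2 fold change was 0.87 ± 0.59 (SE, limma adjusted p 0.697) and 0.17 without WT library 1.

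Anxa7 and Anxa4 were weaker and their WT libraries were closer to each other. Anxa7, which promotes membrane fusion, had 12.5 and 19.1 RPKM in WT and 34.0 and 27.1 RPKM in KO (45, 54, 185 and 131 reads). The groups did not overlap, with a log2 fold change of 0.93 ± 0.43 (SE, limma adjusted p 0.676) that was 0.64 without WT library 1. Anxa4 had 10.4 and 11.9 RPKM in WT and 18.3 and 19.2 RPKM in KO (29, 26, 77 and 72 reads). Here replicates were close in both groups, with a WT average of 11.1 ± 1.08 RPKM (SD, n = 2) and a KO average of 18.7 ± 0.65 RPKM (SD, n = 2). For Anxa4 the log2 fold change was 0.71 ± 0.37 (SE, limma adjusted p 0.683) and 0.62 without WT library 1.

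Anxa6, a long annexin with a duplicated core, was the most even. It had 48.1 and 42.0 RPKM in WT and 48.9 and 50.7 RPKM in KO (85, 58, 130 and 120 reads). Its log2 fold change was 0.14 ± 0.41 (SE, limma adjusted p 0.919), with a 95% interval from -0.86 to 1.15. Of the 10 genes, Anxa6 alone did not have its lowest value in WT library 1.

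On the RPKM scale the order of mean level over the 4 libraries was S100a6, Anxa5, Anxa2, S100a11, S100a10, Anxa1, Anxa6, Anxa7, Anxa4 and S100a4. The values ran from 739.9 down to 6.23 RPKM. The KO means followed the same order, and so did the WT means except that Anxa6 (45.1 RPKM) stood above Anxa1 (41.4 RPKM). In WT library 1 taken alone Anxa6 (48.1 RPKM) also stood above S100a11 (35.7 RPKM) and S100a10 (21.9 RPKM). RPKM divides by the whole gene length, UTRs included, whereas ribosomes read the coding part. With the mean over libraries of recovered reads scaled by coding kilobases and by protein-coding reads (counted in units of 1e+06), Anxa2 (1270) stood above Anxa5 (737.5), and S100a10 (620.1) above S100a11 (447.8). S100a6 stayed first at 7895 and S100a4 last at 25.5, and Anxa7 (198.9), Anxa4 (151.9) and Anxa6 (145.7) were close together. Of the 9 pairs of neighbours in the RPKM order, 8 had ranges over the 4 libraries that overlapped. The exception was Anxa6, whose lowest library (42.0 RPKM) stood above the highest of Anxa7 (34.0 RPKM).

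The comparison of the groups was then read over all 10 genes. At an adjusted p under 0.05 by limma, 0 of the 10 passed in either direction, with adjusted p from 0.676 to 0.932. Over all 11363 tested genes 0.00880% were called higher and 0.0968% lower. At an unadjusted p under 0.05, 0 of the 10 passed, against 2.86% of all tested genes higher and 4.46% lower, and 0 passed with a change over 2-fold as well, against 2.67% higher and 4.29% lower. All 10 log2 fold changes were above 0, where 50.0% of all tested genes were, with a median of 0.90 against 0.00 for all genes. Among the 10, S100a4 had 9 reads and a KO mean 0.713 times its WT mean in RPKM, so its sign is uncertain. The genes whose KO libraries both lay above both WT libraries were Anxa2, Anxa4, Anxa5, Anxa6, Anxa7, S100a6 and S100a10, which makes 7 of 10 against a background of 20.1%, and 0 of the 10 were lower without overlap, against 20.3%. This count rests on the deposited scaling by library size. As shares of protein-coding reads, 5 of the 10 were higher without overlap (Anxa2, Anxa4, Anxa5, Anxa7 and S100a10), against 16.5% of all tested genes, and S100a6 and Anxa6 overlapped. As shares of all recovered reads, 9 of the 10 were, all but S100a4, against 41.4%. Both denominators were added after the data were seen. Among the tested protein-coding genes alone, 53.1% had a log2 fold change above 0, 22.4% were higher and 19.3% lower without overlap, 2.94% were higher and 3.04% lower at an unadjusted p under 0.05, and 2.72% were higher and 2.84% lower when a change over 2-fold was asked as well. These genes share the same 4 libraries, so their common direction is not 10 separate observations.

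A further test, limma-voom on the recovered reads, covered the 9 genes with at least 20 reads. By limma-voom 0 were called, with the smallest adjusted p at 0.395 for S100a10. At an unadjusted p under 0.05, Anxa5, Anxa7, S100a6 and S100a10 were higher, 4 of the 9, against 3.48% of the 9179 genes in that fit, and 0 were lower, against 6.66%. Their log2 fold changes there were 1.20, 0.97, 1.64 and 1.29. The test on log2(RPKM + 1) gave none of the 10 at that threshold. These fits differ in input and gene filter as well as in model, so the move cannot be put down to the model alone. With quantile normalization, limma on log2(RPKM + 1) also gave 4 of the 10, against 421 of 11363 tested genes higher.

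**Figure D2:**
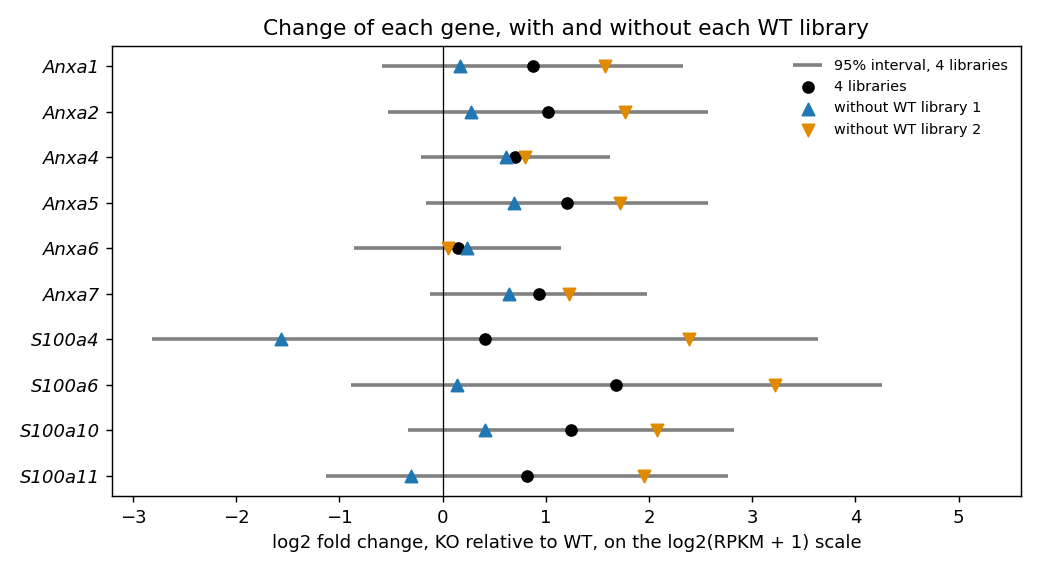
Log2 fold change of each gene, KO relative to WT, with its 95% interval from the 4 libraries (black point and grey bar) and the value without either WT library (triangles). Every interval includes 0; without WT library 1 the values move towards 0 for 7 genes and are below 0 for S100a4 and S100a11, while Anxa6 moves from 0.14 to 0.24.

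Much of the size of these differences rested on WT library 1. Of the 9 genes with at least 20 reads, 8 were lowest in WT library 1, where 32.5% of 8519 tested protein-coding genes with that many reads were. The median difference between the WT libraries, as an absolute log2 ratio, was 1.45 over the 10 genes and 0.54 over those 8519 genes. Between the KO libraries it was 0.17 for the 10 genes and 0.38 for the same 8519 genes. The median log2 fold change of the 10 genes was 0.26 when WT library 1 was left out and 1.75 when WT library 2 was, and 0.92 and 1.09 without KO libraries 1 and 2. WT library 1 held more protein-coding reads than WT library 2.

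As a share of protein-coding reads, the 10 genes together took 0.198% in WT library 1 (95% Wilson interval 0.182 to 0.216%), 0.608% in WT library 2 (0.577 to 0.642%), 0.674% in KO library 1 (0.651 to 0.698%) and 0.715% in KO library 2 (0.689 to 0.742%). The intervals cover counting error only. The KO share was 1.72 times the WT share by group mean, with p = 0.33 by an exact two-sided permutation test, the smallest value that 2 against 2 libraries can give. For the 6 annexins the share was 0.156% and 0.306% in WT against 0.394% and 0.369% in KO (p = 0.33, exact permutation test). For the 4 S100 genes it was 0.0420% and 0.303% against 0.280% and 0.346% (p = 0.667, exact permutation test). On this scale the annexin share kept the groups apart and the S100 share did not, WT library 2 lying between the KO libraries. That contrast depended on the denominator. Of all recovered reads the S100 genes took 0.0174% and 0.103% in WT against 0.183% and 0.205% in KO (p = 0.33, exact permutation test), and the annexins 0.0649% and 0.104% against 0.258% and 0.218% (p = 0.33, exact permutation test), so that both were apart.

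**Figure D3:**
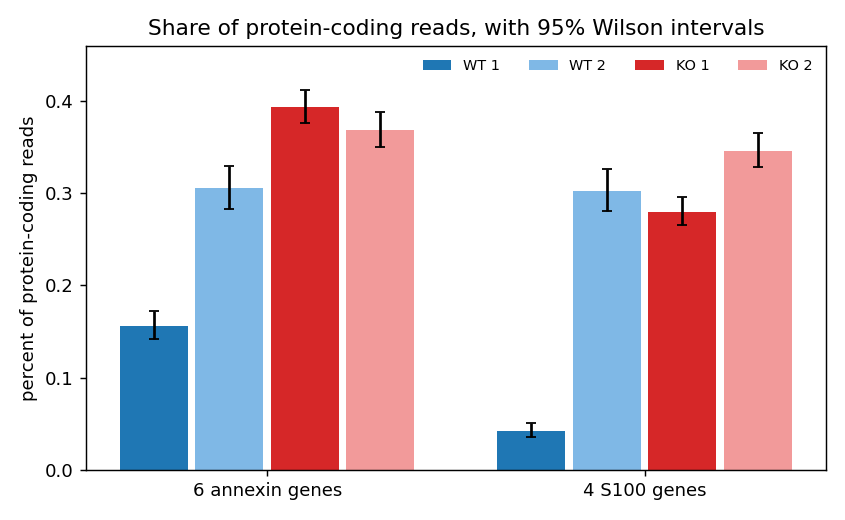
Percent of protein-coding reads on the 6 annexin genes and on the 4 S100 genes in each library, with 95% Wilson intervals as error bars. WT library 1 is low in both groups of genes, at 0.156% and 0.0420%, and WT library 2 lies within the range of the KO libraries for the S100 genes.

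The annexin A2 complex joins Anxa2 and S100a10 products in equal numbers, so the ratio of their signals per gene length was followed across libraries. S100a10 over Anxa2 was 0.354 and 0.408 in WT and 0.414 and 0.490 in KO (p = 0.33, exact two-sided permutation test). Both genes were low in WT library 1 and their ratio there, with a 95% counting interval from 0.211 to 0.594, included the values of the other 3 libraries. The ratio of S100a6 to Anxa2 was 1.69 in WT library 1 (1.29 to 2.21) and 5.05, 4.08 and 5.19 in WT library 2 and KO libraries 1 and 2. Relative to Anxa2, S100a6 was thus weaker in WT library 1 than in the other libraries. The interval covers counting error only, and the spread between WT libraries of this ratio was 3.37 ± 2.38 (SD, n = 2). S100a11 over Anxa1 was 1.61 and 2.88 in WT and 1.70 and 2.49 in KO, with overlapping groups.

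Few of the remaining annexin and S100 genes had enough signal to be tested. Of 19 found in the table, 8 were tested and 8 others had 0 reads in every library (Anxa9, Anxa10, Anxa13, S100a3, S100a5, S100a14, S100g and S100z). Of the tested genes, 4 had a log2 fold change above 0 and 4 below, and 0 were called by limma. At an unadjusted p under 0.05, 1 of the 8 was higher by limma, against 2.86% of all tested genes, and 0 were lower. By limma-voom 0 were called, and 2 of the 5 genes in that fit (Anxa3 and S100a13) were higher at an unadjusted p under 0.05, against 3.48%. The gene at that threshold by limma was Anxa3, with 16.8 and 15.1 RPKM in WT and 39.6 and 34.7 RPKM in KO (37, 26, 131 and 102 reads), a log2 fold change of 1.17 ± 0.39 (SE, limma adjusted p 0.665). Unlike most of the 10 genes, Anxa3 was about the same in both WT libraries. S100a13, which takes part in the export of growth factors that lack a signal peptide, had 18.6 and 80.2 RPKM in WT and 80.2 and 103.9 RPKM in KO, low in WT library 1 alone, with a log2 fold change of 1.21 ± 0.74 (SE, limma adjusted p 0.697). S100a16 had 16.4 and 43.3 RPKM in WT and 16.4 and 22.97 RPKM in KO, and S100a1 had 16.7 and 36.7 RPKM against 20.7 and 23.2 RPKM. For both, the groups overlapped and the log2 fold changes were -0.45 and -0.18. Anxa11, a partner of S100a6, stayed between 5.87 and 7.62 RPKM, with a log2 fold change of -0.16. S100a8, S100a9 and S100b had at most 9 reads each in all, and their log2 fold changes were 0.99, -0.76 and 0.87.

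Genes that act with annexins at membrane wounds were examined next. Of 40 listed genes found in the table, 33 were tested, 23 with a log2 fold change above 0 and 10 below, with a median of 0.31. By limma 0 were called, and 1 of the 33 was higher at an unadjusted p under 0.05, a share close to the 2.86% of all tested genes. By limma-voom 0 were called, and 3 of the 33 were higher at an unadjusted p under 0.05, against 3.48%. KO libraries lay above WT libraries without overlap for 10 of the 33, where 20.1% of all tested genes did. Myof and Dysf, which code for ferlins, large calcium-binding proteins that fuse vesicles to the torn membrane, were in that number. Otof, another ferlin gene of the list, had 0 reads in every library. Myof had 6.84 and 7.92 RPKM in WT and 15.2 and 17.7 RPKM in KO (52, 47, 174 and 180 reads), a log2 fold change of 1.06 ± 0.37 (SE, limma adjusted p 0.672). Dysf had 3.39 and 3.82 RPKM in WT and 6.88 and 6.24 RPKM in KO (17, 15, 52 and 42 reads), a log2 fold change of 0.72 ± 0.35 (SE, limma adjusted p 0.676). In both ferlins the WT libraries were alike.

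Other genes of the repair list varied in their pattern. Pdcd6, the calcium sensor ALG-2 that recruits the ESCRT machinery, had 2.97 and 19.7 RPKM in WT and 17.0 and 27.5 RPKM in KO, with the largest log2 fold change of the list at 1.32 ± 0.81 (SE, limma adjusted p 0.697) and WT library 1 again lowest, though WT library 2 was above KO library 1. Cast, the inhibitor of calpains, had 6.51 and 3.52 RPKM in WT and 11.3 and 9.50 RPKM in KO, a log2 fold change of 0.97. Chmp2a, an ESCRT-III subunit, had 22.8 and 27.4 RPKM against 37.95 and 65.0 RPKM, a log2 fold change of 0.96. Ahnak, a giant scaffold that binds the S100a10 and annexin A2 complex, varied as much within groups as between them, with 20.7 and 7.66 RPKM in WT and 39.98 and 15.6 RPKM in KO, so that its log2 fold change of 0.93 had a standard error of 0.66. Capn2, a calpain subunit, had 12.03 and 18.1 RPKM against 18.2 and 24.8 RPKM, a log2 fold change of 0.50. Lowest in the list were Chmp3 (-0.57), Cavin3 (-0.56), Chmp1a (-0.53) and Smpd1 (-0.44), and of these only Smpd1, the acid sphingomyelinase, had groups that did not overlap. Trim72, a repair protein of striated muscle, had 3 reads in all and was not tested.

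**Figure D4:**
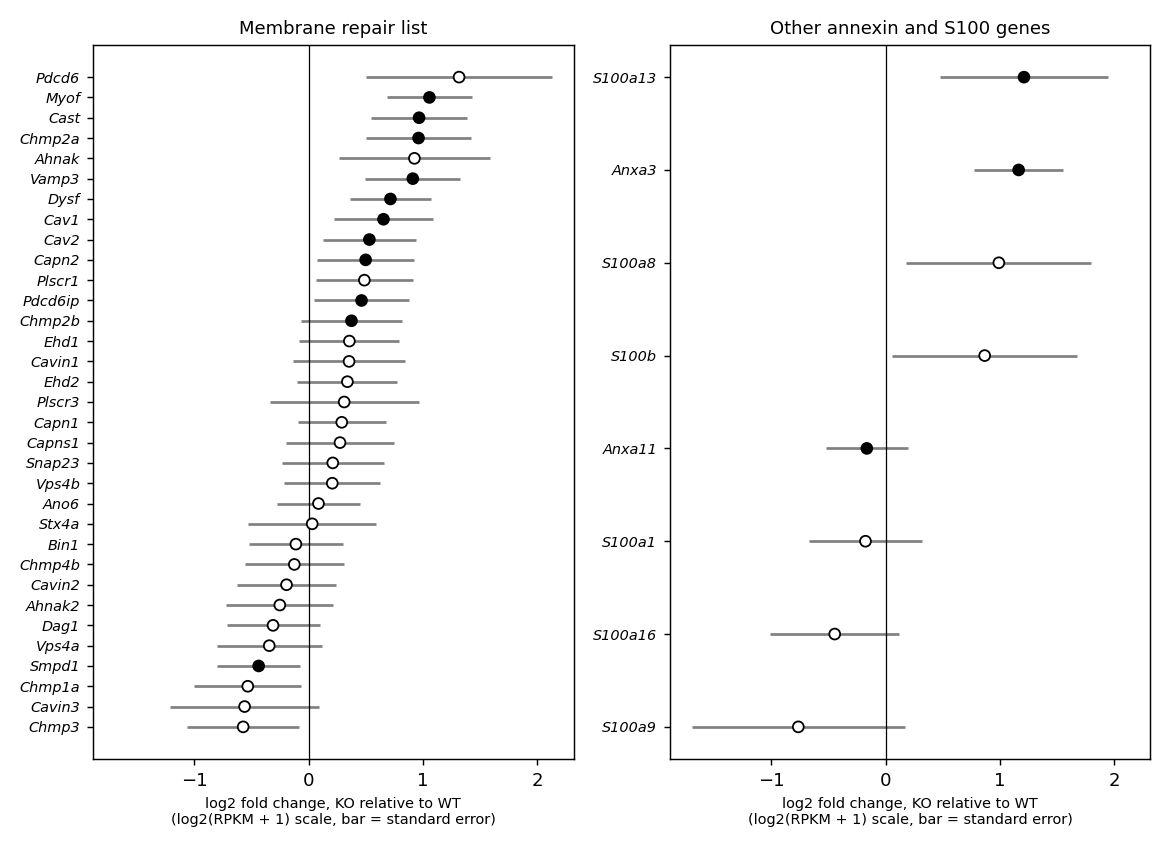
Log2 fold change, KO relative to WT, with its standard error as a bar, for the 33 tested genes of the membrane repair list (left) and the 8 other tested annexin and S100 genes (right). Filled points mark genes whose WT and KO libraries do not overlap; in the repair list 10 of these lie above 0 and 1 below.

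Several of the 10 genes are also read in cells other than myoblasts, so marker genes were set beside them. The summed myoblast markers ran from 350.4 RPKM in WT library 1 down to 121.0 RPKM in KO library 1, with 9 of 10 log2 fold changes below 0. In KO 7 of the 10 were lower without overlap and 1 (Vcam1) was higher, against 20.3% and 20.1% of all tested genes. Of the 10 myoblast markers, 0 were called by limma, with 5 lower at an unadjusted p under 0.05, against 4.46% of all tested genes. By limma-voom 1 was called lower, against 0.425%. The 10 fibroblast markers summed to 619.5 and 406.8 RPKM in WT and 999.4 and 480.2 RPKM in KO. Dcn alone made up 239.5, 125.8, 459.9 and 171.1 RPKM of that. The log2 fold change was above 0 for 8 of the 10 fibroblast markers, as it was for all 10 annexin and S100 genes, and 3 were higher and 1 (Thy1) lower in KO without overlap, against 20.1% and 20.3% of all tested genes. At an unadjusted p under 0.05 by limma, 1 of the 10 was higher, against 2.86%. The 7 endothelial markers summed to 190.8 and 273.1 RPKM against 298.1 and 361.4 RPKM. All 7 had a log2 fold change above 0, and 5 were higher in KO without overlap, against 20.1% of all tested genes, with 1 higher at an unadjusted p under 0.05 by limma, against 2.86%. The 9 immune markers summed to 48.2 and 76.5 RPKM against 68.0 and 51.4 RPKM, with Itgam at 0 in every library and Ptprc at 5, 0, 6 and 0 reads. The 6 markers of pericytes and smooth muscle summed to 167.4 and 127.8 RPKM against 104.2 and 112.4 RPKM. Of the 5 tested, 3 were lower in KO without overlap, against 20.3% of all tested genes, and 0 were higher, against 20.1%. The endothelial and immune sums were lowest in WT library 1, as 9 of the 10 genes were, and the myoblast and smooth muscle sums were highest there. Cldn5 alone made up 73.8 and 166.4 RPKM of the endothelial sum in WT and 147.9 and 237.8 RPKM in KO. Taken singly, 3 of the 7 endothelial and 2 of the 5 tested immune markers were lowest in WT library 1. The immune sum rested on 47 and 48 reads in WT and 104 and 72 reads in KO. The fibroblast sum was higher in WT library 1 than in WT library 2, whereas 9 of the 10 genes, all but Anxa6, were lower there. The part of the makeup of the cultures in the annexin and S100 values was not tested. No mRNA level was set beside this signal. Fewer cells of a type, less message in each cell and fewer ribosomes on each message therefore cannot be told apart.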

How the data were processed

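There were 2 WT and 2 KO libraries, grouped by the sample titles. The titles name Polysome-Seq, while the extraction text describes ribosome-protected fragments, and the values were read as the latter. The deposited values are RPKM per gene and library. Per the labels and the study's methods, the authors removed low-quality, rRNA and tRNA reads, mapped with TopHat2 to mm10 with an Ensembl annotation and counted with HTSeq; tool versions and the strand setting are not given in the sources used here. RPKM times the deposited gene length (in bases) was a whole multiple of 1 step for 100% of values above 0 (tolerance 0.01 reads), which gave reads back. GENCODE M21 held 99.7% of the gene identifiers, 99.6% of them at the same coordinates.

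Only genes averaging 1 RPKM or more were tested, with limma 3.58.1 in R 4.3.3 (lmFit, eBayes with trend) on log2(RPKM + 1), with Benjamini-Hochberg adjustment over all tested genes; that scale understates changes of weakly read genes. Steps were tested on simulated data. The gene names were given; the repair list names its 4 highest and 4 lowest genes with at least 20 reads, plus Dysf, Myof, Ahnak, Trim72 and Capn2. Genes and lists were chosen with earlier results of these data known. Alternatives covered pseudocount, filters, scaling, limma-voom, coding GC, the replicate block and leaving out each library.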

Additional observations from a re-analysis of the deposited data

How the results depend on the processing

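None of the 10 genes was called under any of the 17 alternatives, with adjusted p from 0.233 to 0.999, and their log2 fold changes kept their sign in 165 of 168 values. The exceptions were S100a4 at -1.57 without WT library 1 and -0.45 without KO library 2, and S100a11 at -0.31 without WT library 1. Eif5a was -0.12 without WT library 1, within a range of -0.12 to 0.76 over the fits that left out a library. In those fits 1 group holds a single library, which is assumed to vary like the other group. Leaving out a library gave from 0.14 to 3.22 for S100a6, from -1.57 to 2.39 for S100a4 and from -0.31 to 1.95 for S100a11. The median of all tested genes moved from 0.00 to 0.83 after scaling each library to the same sum of the table, to -0.11 over protein-coding genes, and to 0.47 on the same total of recovered reads, a scaling chosen after the data were seen. Relative to these medians the 10 genes lay at 1.12, 0.88 and 1.03, against 0.90 as deposited, and all 10 stayed above. Anxa6 fell to 0.0016 in absolute terms when scaled over protein-coding genes. With the coding GC trend removed, the median of the 10 genes was 0.70.

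At an unadjusted p under 0.05, 0 of the 10 genes were changed over 2-fold as reported, 1 with every gene above 0 and 1 with protein-coding genes only. The number was 8 with the same sum of the table, 6 with the same total of recovered reads, 4 with quantile normalization and 3 with limma-voom. All tested genes moved as well. Without the fold condition, 325 of 11363 were higher as reported. This became 1635 with the same sum of the table, 1684 with the same total of recovered reads and 421 with quantile normalization. It was 403 of 18961 with every gene above 0, 418 of 9877 with protein-coding genes only and 319 of 9179 with limma-voom. At an adjusted p under 0.05, the 11 lower and 1 higher of all tested genes became 0 and 0 under 9 alternatives. These changed the filter, gene class, pseudocount, trend, GC, recovered-read scaling or replicate block. At an unadjusted p under 0.05 by limma, these 9 fits still held from 178 to 1684 higher and from 170 to 533 lower. At an adjusted p under 0.05 there were 7 higher and 11 lower with the same sum of the table, and 39 lower and 0 higher with limma-voom. With the replicate block, which cannot move a fold change in this balanced design, 0 of the 10 genes were called and the smallest limma adjusted p was 0.667. The sample titles link WT and KO libraries by number only. Deviations of same-numbered libraries correlated at 0.0575, which cannot show whether they were paired. As a share of all recovered reads the 10 genes took 0.432% in KO and 0.144% in WT, in place of 0.695% and 0.403% of protein-coding reads. The cause of these shifts was not tested.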
